A study of Mus musculus with 4 samples.

Results

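The comparison asked what libraries from neural stem cells given Cre mRNA had in common against the library from cells without it. The genes compared were those with at least 20 reads in the control library or in each of the 3 Cre mRNA libraries, which left 8744 of the 14949 genes named in the table. All cells were primary neural stem cells from the neocortex of mouse embryos with floxed alleles, grown in culture and given lipid nanoparticles (LNP) for 3 days. The control library (labelled WT-ONT) came from Tut1f/f cells given empty LNP. The 3 others came from cells given Cre-LNP, nanoparticles loaded with mRNA for Cre recombinase: Tut1f/f cells (TKO), p53f/f cells (PKO) and Tut1f/f;p53f/f cells (TPDKO). Each condition was 1 library of long Nanopore reads from PCR-amplified cDNA. The Cre mRNA libraries therefore shared a treatment but not a genotype, and the control differed from them by the mRNA cargo, by its library preparation and by its embryos. These cannot be told apart.

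An mRNA is made from a gene's exons and carries a poly(A) tail, and it is read in the cytoplasm by ribosomes. Several kinds of RNA break with this pattern. Long noncoding RNAs such as Malat1 stay in the nucleus, replication-dependent histone mRNAs end in a short stem-loop in place of a tail, and mitochondria make their own ribosomal RNAs. Neural stem cells of the embryonic cortex, also called radial glia, divide while keeping factors such as Hes1, Sox9 and Pax6, and they make much of their own cholesterol under control of the Srebf transcription factors.

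The stem-loop of histone mRNAs is shown because 8 of the 16 tested genes named Hist1 to Hist4 rose, and because the same letters also lay in genes that did not increase. Of these 8 genes, 5 held the letters in an annotated transcript, and Hist1h1b, Hist1h2ak and Hist2h2ac did not. Only these exact letters and annotated transcripts were searched, so a missing match does not show that a gene lacks a stem-loop. The longest annotated transcript of Hist1h2ak has 393 bases. A search of the GENCODE M21 transcripts (GRCm38) for GGCNCTTTTCAGNGCC found 36 genes, of which 10 were tested. Capitals mark these 16 bases, and lower case the 5 bases on each side. Positions are those of the printed 26 bases, and each sequence is given on the strand of its gene, which is the minus strand for Hist1h2ag and the plus strand for the others.
Hist1h4d, chr13:23581945-23581970: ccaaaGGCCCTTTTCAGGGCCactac
Hist1h2ab, chr13:23751567-23751592: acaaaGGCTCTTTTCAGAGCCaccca
Hist2h2aa1, chr3:96246027-96246052: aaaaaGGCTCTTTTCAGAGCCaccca
Hist1h2ag, chr13:22042478-22042503: acaaaGGCTCTTTTCAGAGCCaccta
Hist3h2a, chr11:58955167-58955192: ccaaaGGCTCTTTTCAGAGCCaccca
The first 3 of these genes were higher with Cre mRNA, Hist1h2ag was lower, and Hist3h2a differed by less than 2-fold. The letters did not always lie near the end of the annotated transcript. After them came 770 bases in Hist1h4d and 1643 in Hist3h2a, against 11 in Hist1h2ab, 35 in Hist2h2aa1 and 23 in Hist1h2ag. Of all 10 tested genes with these letters 5 were higher, 1 was lower and 4 were not called, beside 9.08% higher and 9.45% lower of all tested genes. Hist1h2ab and Hist1h2bj had 4 and 8 control reads and were tested through the Cre mRNA libraries alone, and Hist1h2ag through the control alone.

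The libraries held between 3936827 and 5125888 reads, of which between 2863392 and 4244467 named a gene. Levels are given in CPM, reads per 1000000 gene reads after scaling for composition (TMM). The cells' identity was checked against fixed markers. Of 13 neural stem cell markers 11 had reads and were tested, and they summed to between 11416.5 and 13301 CPM per library. Most of this was Fabp7, at 9359 CPM in the control. Tested markers of neurons, astrocytes and the oligodendrocyte lineage summed to 461, 420 and 357 CPM in the control, so these lineages were not absent by their markers. Markers of microglia, endothelial, mesenchymal and erythroid cells gathered at most 7 reads per library and list, and none was tested. The floxed genes were checked next. Tut1, the uridylyltransferase of U6 snRNA, had 37 reads in the control and 11, 14 and 27 in TKO, PKO and TPDKO (log2 fold change -0.64 ± 0.49 (SE), FDR = 0.37). Its level therefore did not follow the genotypes, as PKO carries no floxed Tut1 by its label. Of these, the annotated transcript of 2753 bases held 28 reads in the control and 0, 2 and 6 in TKO, PKO and TPDKO, so it too was low in PKO. Reads counted over the whole gene do not show whether the floxed exon was lost. Trp53, which encodes p53, was at 41.5 CPM in the control and 22.7, 2.98 and 6.39 CPM in TKO, PKO and TPDKO. It was lowest in the libraries labelled p53f/f and was also lower in TKO than in the control. Xist, the RNA of the inactive X chromosome, had 44 reads in TKO, 49 in PKO and 0 in the control and TPDKO, whereas the Y-linked gene Kdm5d was at 24.2 CPM in the control, 32.3 CPM in TPDKO and 0 in the others. Sex of the embryos was thus not shared by the Cre mRNA libraries.

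Of the 8744 genes, 794 (9.08%) rose and 826 (9.45%) fell with Cre mRNA. A gene was called with edgeR's quasi-likelihood test at a false discovery rate (FDR) under 0.05 and a change of at least 2-fold. That test takes its spread from the differences among the Cre mRNA libraries and assumes it for the single control, so it compares this control library with the others and not the treatment over repeated cultures. By a second rule, which used no model, a gene counted as shared when its ratio to the control was at least 2-fold in each Cre mRNA library and each exact 95% interval excluded 1. It found 640 higher genes (7.32%) and 584 lower genes (6.68%). Of these, 625 and 566 were also called by edgeR in the same direction. In 3249 genes (37.2%) all 3 Cre mRNA libraries lay above the control, and in 3264 (37.3%) all lay below it. All 3 ratios share the control, so any error of that 1 library enters each of them. For a single gene, an exact permutation test of 1 library against 3 cannot go below p = 0.25.

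The filter on reads shaped the counts. Of the falling genes, 408 passed it through the control library alone, having fewer than 20 reads in at least 1 other, and 214 of the rising genes had fewer than 20 reads in the control. Among 6851 genes with 20 or more reads in every library, tested alone, 497 rose and 514 fell. With DESeq2, 543 rose and 430 fell. Just inside the filter were 78 genes with 20 control reads and too few elsewhere (median 13.5 reads in the Cre mRNA libraries), and just outside 66 genes with 19 (median 13).

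**Figure D1:**
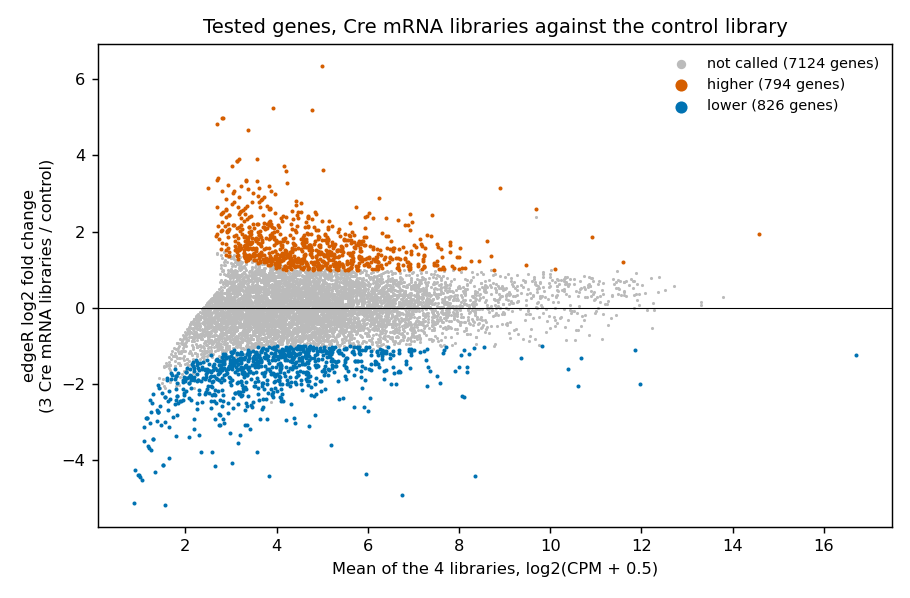
Fold change against level for the 8744 tested genes: the x axis is the log2 of the mean CPM of the 4 libraries plus 0.5, the y axis edgeR's log2 fold change, and each point a gene. The 794 higher and 826 lower genes are coloured, and the other genes are grey.

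Among genes of at least 50 CPM in the control or in each other library, with 20 reads in every library, the largest increase was in Hist1h1b (chr13:21779883-21780625), a linker histone of dividing cells. It was at 68.8 CPM in the control and 576, 615 and 635 CPM in TKO, PKO and TPDKO. All 3 Cre mRNA libraries lay close together and 8.85-fold above the control on average (log2 fold change 3.14 ± 0.23 (SE), FDR = 2.0e-05). The core histone H4 gene Hist1h4d was at 27.5 CPM in the control and 141, 177 and 139 CPM in TKO, PKO and TPDKO (log2 fold change 2.47 ± 0.28 (SE), FDR = 0.00034). Among the 16 tested genes named Hist1 to Hist4, 8 rose, 1 fell and 7 were not called, beside 9.08% rising and 9.45% falling of all tested genes. This set was put together after its values were seen. Of the 8, 3 had fewer than 20 control reads and were tested because the Cre mRNA libraries were high, and the falling gene was tested through the control alone, so the count and medians describe the tested genes and not the whole family. Its median log2 ratios were 0.79, 1.20 and 1.01 in TKO, PKO and TPDKO, beside medians between -0.02 and 0.02 over all tested genes. Hist1h2ab had 4 reads in the control and 83, 147 and 105 in TKO, PKO and TPDKO. The H2A gene Hist2h2aa1 was at 6.17 CPM in the control against 35.3 ± 4.91 CPM (SD, n = 3) in the Cre mRNA libraries. Hist1h2ag went the other way, with 27 reads in the control and 4, 7 and 6 in the others (log2 fold change -1.79 ± 0.53 (SE), FDR = 0.03), and was called in 8 of 11 settings. Hist3h2a and Hist3h2ba, which both hold the stem-loop letters, had log2 fold changes of -0.81 and -0.71. Histone genes of 1 cluster are near-identical in sequence, and reads may have been shared among them by the assignment.

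Malat1 (chr19:5795690-5802672), an abundant nuclear noncoding RNA, was at 13.1 CPM in the control and 107, 96.4 and 87.8 CPM in TKO, PKO and TPDKO (log2 fold change 2.89 ± 0.30 (SE), FDR = 0.00019). Most of its gain lay in 1 annotated transcript of 485 bases, with 7 reads in the control and 266, 273 and 239 in the others. A further transcript of 656 bases had 13 reads in the control and 15, 16 and 4. Counts assigned to the gene were a small part of what lay at this locus, as described below for reads without a gene name.

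Son, a large nuclear speckle protein needed for splicing, rose from 170 CPM in the control to 1186, 872 and 1049 CPM in TKO, PKO and TPDKO (log2 fold change 2.61 ± 0.24 (SE), FDR = 9.5e-05). Nearly all its reads were on 1 isoform named by a read whose span was 1191 bases, against 8731 bases for the longest annotated Son transcript. It held 650 reads in the control and 3345, 2797 and 2956 in the others. Tet1, which oxidises 5-methylcytosine in DNA, was at 10.7 CPM in the control and 68.1, 76.4 and 56.8 CPM in TKO, PKO and TPDKO (log2 fold change 2.65 ± 0.33 (SE), FDR = 0.00052). Here an annotated transcript of 414 bases held 14, 99, 135 and 96 reads in the same order of libraries, whereas the longest annotated transcript has 14369. Many reads counted for these long genes were thus on isoform entries far shorter than the longest transcript.

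The other 5 of the 10 largest increases had long transcripts, from 6064 to 21704 bases. Chd6, a chromatin remodeller, was at 14.5 CPM in the control against 81.5 ± 5.37 CPM (SD, n = 3) in the Cre mRNA libraries. Gtf2a1, a subunit of the general transcription factor TFIIA, was at 39.2 CPM in the control against 214 ± 22.9 CPM (SD, n = 3), and the kinase Tnik at 15 CPM in the control against 79.3 ± 4.73 CPM (SD, n = 3). Syne2, a giant nuclear envelope protein, was at 14.7 CPM in the control against 76.5 ± 14.3 CPM (SD, n = 3). Cep295, a centriole protein, was at 20.4 CPM in the control against 106 ± 2.43 CPM (SD, n = 3). In each, the lowest Cre mRNA library exceeded the control at least 4-fold.

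Under the same limits, the largest decreases reached further than the largest increases. Mest (chr6:30723547-30748465), an imprinted gene expressed from the paternal copy, fell from 1150.2 CPM to 37.3, 43.9 and 80.7 CPM in TKO, PKO and TPDKO (log2 fold change -4.42 ± 0.30 (SE), FDR = 1.5e-05). One annotated transcript of 2561 bases carried 4617 of its 4845 control reads and 83, 120 and 212 reads in the others. Uqcrfs1, the Rieske iron-sulphur subunit of respiratory complex III, was at 217 CPM in the control and 9.83, 7.46 and 14.5 CPM in TKO, PKO and TPDKO (log2 fold change -4.36 ± 0.28 (SE), FDR = 1.5e-05). Gm47283, a predicted gene at the end of the Y chromosome, was at 390.3 CPM in the control and 6.78, 10.1 and 22.2 CPM in TKO, PKO and TPDKO (log2 fold change -4.90 ± 0.37 (SE), FDR = 2.0e-05). Its reads did not follow the Y chromosome, since it held 20 and 34 reads in TKO and PKO, where Kdm5d had 0, and was low in TPDKO, which carried Kdm5d reads.

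Among the other 7, Cnp, an enzyme of myelinating cells, was at 75.7 CPM in the control against 8.83 ± 2.03 CPM (SD, n = 3) in the Cre mRNA libraries. Bola3, which helps build iron-sulphur clusters in mitochondria, was at 60.3 CPM in the control against 7.48 ± 1.18 CPM (SD, n = 3). Atp1b2, a subunit of the sodium pump, was at 57.5 CPM in the control against 7.8 ± 1.69 CPM (SD, n = 3), and Serp1, a protein of the endoplasmic reticulum, at 79.3 CPM in the control against 11.2 ± 2.36 CPM (SD, n = 3). H2afj, a replication-independent histone H2A, was at 173 CPM in the control against 26.7 ± 16.3 CPM (SD, n = 3). It was the only called gene of 9 tested histone variants (11.1% falling, beside 9.45% of all tested genes), and none rose. Prkar1a, the regulatory subunit of protein kinase A, was at 159 CPM in the control against 26.3 ± 10.3 CPM (SD, n = 3). Acsbg1, an acyl-CoA synthetase of brain, was at 137 CPM in the control against 22.6 ± 10.6 CPM (SD, n = 3). In these genes every Cre mRNA library lay below the control.

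**Figure D2:**
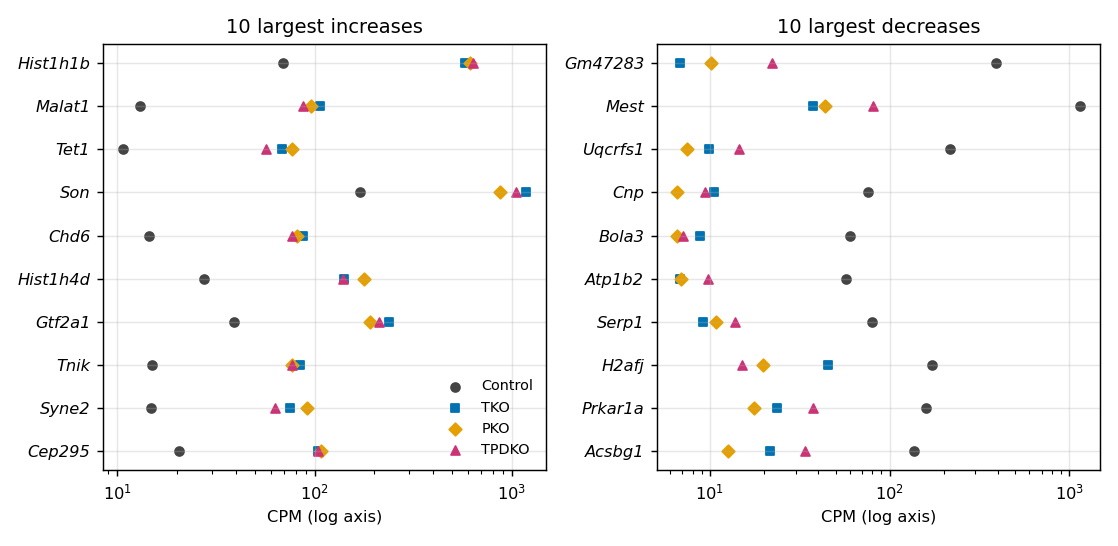
CPM on a log axis of the 10 genes with the largest increase (left) and decrease (right), 1 point per library. The Cre mRNA libraries cluster away from the control in each gene, and on this axis the spread among them was widest for Gm47283, which ran from 6.78 CPM in TKO to 22.2 CPM in TPDKO.

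The changes followed transcript length in a curve that turned. Length was that of the longest annotated protein-coding transcript of 8247 protein-coding genes. Of these genes, 6517 reached the read minimum of the filter in every library. Of the 790 that fell, 388 passed the filter through the control alone. Of the 724 that rose, 170 lay under that minimum in the control. Medians and counts by length, and those by exons and base composition below, thus describe the tested genes. How far the filter shaped them was not tested. Over 8000 bases, median log2 ratios were 1.08, 1.11 and 0.87 in TKO, PKO and TPDKO, and 187 of 399 genes rose while 7 fell. Between 1500 and 2000 bases the medians were -0.44, -0.47 and -0.28, and 12 of 958 genes rose while 154 fell. Below 500 bases they were positive again, at 0.60, 0.64 and 0.50 over 42 genes. Rising genes had a median length of 5768.5 bases and 16 exons, falling genes 2566 bases and 9 exons, and all tested protein-coding genes 2997 bases and 9 exons. The median of genes from 4000 bases up minus that of genes under 1000 bases was thus only 0.14 ± 0.10 (SD, n = 3), because both ends of the range were raised. It turned to -0.11 when length was taken from the transcript with most reads.

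Exon number followed length. Genes with 15 or more exons had a median 0.23 ± 0.03 (SD, n = 3) above that of genes with 1 to 3 exons, but the difference turned to -0.26 when exons were counted in the transcript with most reads. Genes with over 25 exons had medians of 0.78, 0.79 and 0.54. Of these 549 genes 182 rose and 17 fell, beside 8.78% rising and 9.58% falling of all tested protein-coding genes. Within genes of 1500 to 3000 bases the order was the opposite, with medians of -0.37, -0.34 and -0.28 for 15 or more exons and -0.09, -0.01 and -0.16 for 1 to 3. Over 8000 bases the many-exon genes were again higher, at 1.20, 1.20 and 0.97 over 266 genes. The 125 genes there with 4 to 14 exons were at 0.79, 0.79 and 0.67, but only 8 genes had 1 to 3. Base composition moved with the ratios too. Of 441 genes with a GC content up to 40%, 71 rose (16.1%) and 15 fell (3.40%). Of 1494 with 55 to 60%, 49 rose (3.28%) and 238 fell (15.9%). Within 1500 to 3000 bases, medians were -0.19, -0.24 and 0.01 under 45% GC and -0.52, -0.43 and -0.57 from 55% up.

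**Figure D3:**
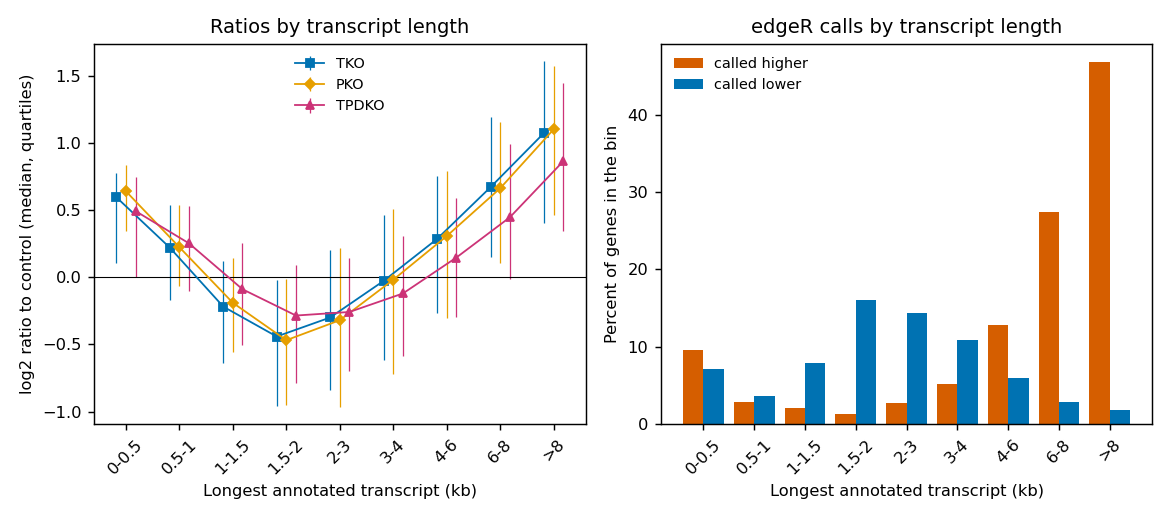
Left, the median log2 ratio to control of protein-coding genes in bins of longest annotated transcript (kb), with lines for the quartiles, for each Cre mRNA library. Right, the percent of genes in each bin that rose or fell by edgeR. The medians dip between 1.5 and 2 kb, and 46.9% of genes over 8 kb rose. The genes include those that passed the filter on reads through the control alone or the Cre mRNA libraries alone.

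Inside genes the shift went the other way. Among 3140 genes with at least 2 annotated transcripts and 20 reads on them in every library, the read-weighted mean length of annotated transcripts was at least 10% shorter than in the control in all Cre mRNA libraries for 141 genes, and at least 10% longer for 35. Counting any difference, 1271 genes were shorter in all 3 and 634 longer. The median gene changed little, with ratios of 0.997, 0.998 and 0.997 in TKO, PKO and TPDKO. Long genes had more reads, while the annotated transcripts read within a gene were, where they shifted, more often shorter.

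Chromatin regulators with large proteins were the list that rose most often. Of 43 tested, 30 rose, 3 of them with fewer than 20 control reads, and 1 fell, beside 9.08% rising and 9.45% falling of all tested genes. Their median log2 ratios were 1.23, 1.33 and 1.08 in TKO, PKO and TPDKO. Kmt2a, a histone H3 lysine methyltransferase, was at 49.6 CPM in the control and 167, 157 and 141 CPM in TKO, PKO and TPDKO (log2 fold change 1.64 ± 0.25 (SE), FDR = 0.0015). The remodeller Chd4 was at 74.3 CPM in the control against 224 ± 41 CPM (SD, n = 3) and Atrx at 119 CPM in the control against 299 ± 37.7 CPM (SD, n = 3) in the Cre mRNA libraries, while Smarca5 was at 65.8 CPM in the control against 138 ± 17 CPM (SD, n = 3) and was called in 8 of the 13 settings tried, the one reported included. Kdm6b, a histone demethylase, fell from 15.7 CPM to 5.08, 4.18 and 4.04 CPM (log2 fold change -1.82 ± 0.37 (SE), FDR = 0.0057), but with 15, 14 and 12 reads in these libraries it was tested through the control alone. Kdm6b was called in 9 of 11 settings. The list's median length was 8509 bases. After subtracting the median of genes in the same length bin, its median was 0.37.

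Genes of splicing were called in both directions, mostly at shares near or below those of all tested genes (9.08% rising and 9.45% falling). Of 18 splicing kinases and speckle genes 3 rose and none fell, namely Son, Srrm1 (85.9 CPM in the control against 271 ± 3.62 CPM (SD, n = 3)) and Rbm39 (114 CPM in the control against 233 ± 3.02 CPM (SD, n = 3)), which was called in 7 of 13 settings. Of 58 core spliceosome genes 3 rose (5.17%) and 4 fell (6.90%). Snrnp200, the helicase that unwinds U4 from U6, was among those that rose, at 69.6 CPM in the control against 221 ± 59 CPM (SD, n = 3). Snrpb, a core protein of most spliceosomal particles, fell from 391 CPM to 112, 95.5 and 136 CPM (log2 fold change -1.77 ± 0.22 (SE), FDR = 0.00049), and Lsm2, a member of the ring that binds the end of U6, was at 123.5 CPM in the control against 35.1 ± 2.22 CPM (SD, n = 3). In the list of U6 processing and binding genes, Lsm2 and the exonuclease Usb1 (18.5 CPM in the control against 6.39 ± 0.625 CPM (SD, n = 3)) were the called genes, both falling, although the list's medians were positive at 0.30, 0.18 and 0.55. Usb1 was tested through the control alone and called in 9 of 11 settings. Srsf9 was the SR factor that rose of 11 tested (6.41 CPM in the control against 30.6 ± 4.39 CPM (SD, n = 3)). Of 26 hnRNP genes 1 rose, Hnrnpd, and 3 fell, including Hnrnpk, at 502 CPM in the control against 172 ± 48.5 CPM (SD, n = 3). Of these, Hnrnpd, with 19 control reads, was tested through the Cre mRNA libraries alone and 2 of the 3 falling genes through the control alone. Of 17 nonsense-mediated decay factors, Smg5 (4.51 CPM in the control against 15 ± 4.14 CPM (SD, n = 3)) and the kinase Smg1 (4.27 CPM in the control against 11.3 ± 1.33 CPM (SD, n = 3)) rose and none fell, and both had fewer than 20 control reads and were tested through the Cre mRNA libraries alone. Smg1 was called in 7 of 11 settings. Of 178 Zfp genes, which encode DNA-binding zinc finger proteins, 23 rose, 11 of them with fewer than 20 control reads, and 6 fell, 5 of them tested through the control alone, with Zfp91 at 33.5 CPM in the control against 84.4 ± 15.9 CPM (SD, n = 3) and Zfp410 at 31.8 CPM in the control against 14.2 ± 5.81 CPM (SD, n = 3), the latter called in 9 of 13 settings.

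Several genes of lipid synthesis fell. Of 28 tested genes of cholesterol and fatty acid synthesis none rose and 8 fell (28.6%, beside 9.45% of all tested genes), with medians of -1.07, -0.56 and -0.21 in TKO, PKO and TPDKO. The 8 were Hmgcs1, Mvk and Mvd of the mevalonate pathway, Acly, Fasn and Scd2 of fatty acid synthesis, and the regulators Srebf1 and Insig1. Of these, Srebf1, Insig1 and Mvd passed the filter on reads through the control alone. Hmgcs1, which makes HMG-CoA, was at 522 CPM in the control and 178, 199 and 386 CPM in TKO, PKO and TPDKO (log2 fold change -1.04 ± 0.33 (SE), FDR = 0.039), and was called in 8 of the 13 settings tried, the one reported included. Scd2, a fatty acid desaturase, was at 433 CPM in the control and 67.4, 67.7 and 197 CPM in TKO, PKO and TPDKO (log2 fold change -1.97 ± 0.43 (SE), FDR = 0.0077), and Acly, which supplies acetyl-CoA, at 165 CPM in the control and 22.4, 17.6 and 56.5 CPM in TKO, PKO and TPDKO (log2 fold change -2.37 ± 0.42 (SE), FDR = 0.0028). In these 3 genes TPDKO stood between the control and the other Cre mRNA libraries. Scd2 and Acly were each called in 12 of 13 settings. Mvd, a decarboxylase of the mevalonate pathway, was at 68.8 CPM in the control and 6.1, 13.1 and 22.2 CPM in TKO, PKO and TPDKO. The next 4 were named after their values were seen. Insig1, which holds Srebf proteins in the endoplasmic reticulum, was at 52 CPM in the control and 6.1, 7.46 and 6.73 CPM in TKO, PKO and TPDKO (log2 fold change -2.93 ± 0.29 (SE), FDR = 0.00013). Srebf1 had 20 reads in the control and 1, 0 and 1 in the others, and was called in 9 of 11 settings. Fasn was at 41.3 CPM in the control against 16.9 ± 1.17 CPM (SD, n = 3) and Mvk at 47.5 CPM in the control against 18.5 ± 2.34 CPM (SD, n = 3).

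Promoters of this list and of the endoplasmic reticulum list were searched in the 250 bases before the RefSeq start (GRCm38.p6), on both strands, since most of the called genes of each list fell. A CCAAT box (CCAAT) was found in 18 of 19 cholesterol genes with a promoter sequence and in 42.0% of 6704 tested genes with one. It was also in 43.7% of genes that fell and 34.7% of genes that rose. The sterol element TCACNCCAC was found in the promoter of Hmgcs1 alone of the 19, and in 1.33% of tested genes. The endoplasmic reticulum stress element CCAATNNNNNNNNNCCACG, which contains a CCAAT box, lay in 8 of 18 genes of the endoplasmic reticulum list and in 13 of all 6704. Of those 8, Hspa5 and Canx fell. The promoters of Hmgcs1 and Hspa5 are printed as examples of called members that hold each element. Capitals mark the CCAAT boxes and the sterol element in Hmgcs1 (plus strand, chr13:119690101-119690350) and the stress element in Hspa5 (plus strand, chr2:34771840-34772089).
Hmgcs1: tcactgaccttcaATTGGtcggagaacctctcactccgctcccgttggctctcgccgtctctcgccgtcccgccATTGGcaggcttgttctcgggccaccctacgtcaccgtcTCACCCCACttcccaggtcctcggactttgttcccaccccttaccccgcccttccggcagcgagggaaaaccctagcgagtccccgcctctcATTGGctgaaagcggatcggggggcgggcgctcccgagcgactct
Hspa5: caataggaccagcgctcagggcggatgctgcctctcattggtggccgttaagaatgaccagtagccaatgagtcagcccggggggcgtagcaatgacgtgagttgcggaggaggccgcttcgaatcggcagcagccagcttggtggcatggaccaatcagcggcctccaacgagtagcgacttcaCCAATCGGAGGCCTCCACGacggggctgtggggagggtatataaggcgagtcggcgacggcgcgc
A match is a description of letters and not evidence of binding.

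In the endoplasmic reticulum list 1 of 21 genes rose and 4 fell, beside 9.45% of all tested genes falling, with medians of -0.38, -0.20 and -0.37. The chaperone Hspa5 was at 196 CPM in the control and 84, 80.9 and 116 CPM in TKO, PKO and TPDKO (log2 fold change -1.07 ± 0.24 (SE), FDR = 0.0088). P4hb, which forms disulphide bonds, was at 241 CPM in the control and 74.5, 76.1 and 91.5 CPM in TKO, PKO and TPDKO (log2 fold change -1.58 ± 0.21 (SE), FDR = 0.00081). The lectin chaperone Canx was at 30.2 CPM in the control against 14.5 ± 1.84 CPM (SD, n = 3) (called in 9 of 13 settings), and Herpud1, of endoplasmic reticulum degradation, at 27.1 CPM in the control against 7.87 ± 2.17 CPM (SD, n = 3). Herpud1 was tested through the control alone. Atf6, a sensor of unfolded proteins, was the rising gene (6.88 CPM in the control against 18.6 ± 2.31 CPM (SD, n = 3)). Of 24 genes of the ATF4 integrated stress response 1 rose and 7 fell (29.2%), 4 of the 7 (Aars among them) tested through the control alone, with medians of -0.92, -0.71 and -0.27. Phgdh, the entry to serine synthesis, was at 336 CPM in the control and 88.1, 85.4 and 146 CPM in TKO, PKO and TPDKO (log2 fold change -1.66 ± 0.27 (SE), FDR = 0.0021). The tRNA synthetases Aars (33.7 CPM in the control against 7.69 ± 3.32 CPM (SD, n = 3)) and Wars (69.3 CPM in the control against 22.8 ± 10.6 CPM (SD, n = 3)) and the mitochondrial enzyme Shmt2 (45.6 CPM in the control against 16.3 ± 5.88 CPM (SD, n = 3)) fell as well. Nupr1, a small stress-induced nuclear protein, was called higher, with 15 reads in the control and 25, 59 and 61 in the others, and was tested through the Cre mRNA libraries alone.

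In the lists of the cytoskeleton, the lysosome and glycolysis more genes were called lower than higher. Of 33 tubulins and actin regulators none rose and 8 fell (24.2%, beside 9.45% of all tested genes), 1 of the 8 tested through the control alone. Gamma-actin (Actg1) was at 2987 CPM in the control and 1131, 899.5 and 1563 CPM in TKO, PKO and TPDKO (log2 fold change -1.32 ± 0.23 (SE), FDR = 0.0027). Tubb4b was at 340.0 CPM in the control against 167 ± 18.5 CPM (SD, n = 3), Tpm4, a tropomyosin, at 219 CPM in the control against 78.9 ± 9.85 CPM (SD, n = 3) and Arpc4, of the Arp2/3 complex, at 197 CPM in the control against 60.6 ± 7.83 CPM (SD, n = 3). Of 32 lysosome genes none rose and 5 fell (15.6%), 1 of them tested through the control alone, among them Psap (218 CPM in the control against 92 ± 45.2 CPM (SD, n = 3), called in 9 of 13 settings), Gabarapl1 (55.8 CPM in the control against 14.8 ± 4.69 CPM (SD, n = 3)) and Atp6v0d1 (57.2 CPM in the control against 27.4 ± 5.99 CPM (SD, n = 3)). Of 17 glycolysis genes 3 fell (17.6%), Pkm (1192 CPM in the control against 482 ± 166 CPM (SD, n = 3)), Pfkl (138 CPM in the control against 31.9 ± 6.83 CPM (SD, n = 3)) and Pgam1 (73.8 CPM in the control against 35.8 ± 6.91 CPM (SD, n = 3)). Hexokinase 2 (Hk2) rose from 115 CPM to 275, 323 and 278 CPM (log2 fold change 1.34 ± 0.23 (SE), FDR = 0.0023). Among the falling genes above, Pgam1 was called in 11 and Atp6v0d1 in 10 of 13 settings. Of 17 immediate early genes none rose and 3 fell, Dusp6 (97.3 CPM in the control against 42.6 ± 13.2 CPM (SD, n = 3)), Klf10 (64.6 CPM in the control against 21.5 ± 10.6 CPM (SD, n = 3)) and Arc, with 21 reads in the control and 0, 2 and 3 in the others, tested through the control alone.

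Of 61 translation factors 8 rose (13.1%) and 4 fell (6.56%), shares near those of all tested genes (9.08% and 9.45%). Eef1a1, which brings tRNAs to the ribosome, was at 6189 CPM in the control and 2779, 2184 and 3739 CPM in TKO, PKO and TPDKO (log2 fold change -1.09 ± 0.22 (SE), FDR = 0.0054), and the helicase Eif4a1 at 518 CPM in the control against 225 ± 61.1 CPM (SD, n = 3), while Eif3c rose, at 191 CPM in the control against 494 ± 26 CPM (SD, n = 3). The 79 cytosolic ribosomal protein genes had medians of 0.31, 0.49 and 0.36, and 1 was called. This was Rps2, which fell from 2688 CPM to 589, 995 and 1094 CPM (log2 fold change -1.59 ± 0.25 (SE), FDR = 0.0019). In the 79 nuclear genes of the respiratory chain the medians were 0.35, 0.34 and 0.36, and 1 gene rose and 5 fell (6.33%, below the 9.45% of all tested genes). Cox5a, a subunit of cytochrome oxidase, was at 669 CPM in the control and 127, 136 and 144 CPM in TKO, PKO and TPDKO (log2 fold change -2.30 ± 0.18 (SE), FDR = 3.4e-05), and Uqcrc1 at 213 CPM in the control against 80.4 ± 12.9 CPM (SD, n = 3). Cox7a1 was called higher, with 34 reads in the control and 60, 81 and 41 in the others, but in only 5 of 13 settings. Of 78 mitochondrial ribosomal proteins 2 rose, Mrpl19 and Mrps30 (the latter with 18 control reads), and 8 fell (10.3%, near the share of all tested genes), 2 of the 8 tested through the control alone, with medians of 0.04, 0.02 and 0.16. Among 35 proteasome subunits Psmd2 was the called gene and fell (143 CPM in the control against 52 ± 15.2 CPM (SD, n = 3)). Of 26 cytosolic chaperones Hspa4 rose (68.8 CPM in the control against 177 ± 19.1 CPM (SD, n = 3)) and none fell.

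Of 11 neural stem cell markers 4 were called higher, beside 9.08% of all tested genes, and none fell. The other 7 were not called, and the medians of the list were 0.29, 0.14 and 0.27 in TKO, PKO and TPDKO. Hes1, the Notch target that keeps progenitors undifferentiated, was at 141 CPM in the control and 513, 473 and 449 CPM in TKO, PKO and TPDKO (log2 fold change 1.76 ± 0.22 (SE), FDR = 0.00049). Nestin (Nes) was at 132 CPM in the control against 271 ± 63.5 CPM (SD, n = 3), Sox9 at 34.9 CPM in the control against 83 ± 14.1 CPM (SD, n = 3) and Pax6 at 8.31 CPM in the control against 17.8 ± 2.16 CPM (SD, n = 3). Nes was called in 7 and Pax6 in 5 of the 13 settings tried, so these calls were lost in the others. Fabp7, a radial glia gene of very high level, did not pass the test (9359 CPM in the control and 10179, 9756 and 11295 CPM in TKO, PKO and TPDKO). Of 15 Notch pathway genes Hes1 and the ligand Jag1 (5.94 CPM in the control against 13.8 ± 2.67 CPM (SD, n = 3), called in 5 of 12 settings) were higher, and the protease gene Ncstn (49.1 CPM in the control against 21.2 ± 8.38 CPM (SD, n = 3)) was among 3 called lower, beside 9.45% of all tested genes, 1 of the 3 tested through the control alone. Ncstn was called in 10 of 13 settings. Of 4 tested astrocyte markers 3 were not called and Aldh1l1 was lower. It was at 44.4 CPM in the control and 5.42, 3.28 and 23.9 CPM in TKO, PKO and TPDKO (log2 fold change -2.05 ± 0.61 (SE), FDR = 0.031), and it was tested through the control alone, with 16 and 11 reads in TKO and PKO, and called in 9 of 12 settings. No gene of the fixed lists of neuron, intermediate progenitor or oligodendrocyte lineage markers was called. The oligodendrocyte lineage list had medians of 0.74, 0.72 and 0.44 over 4 tested genes, whereas Cnp, which is not on that list, fell. Of 25 adhesion and matrix genes 4 rose, among them the integrin Itga6 (27.1 CPM in the control against 56.8 ± 8.69 CPM (SD, n = 3)), and the brain proteoglycan Bcan was called lower (32.5 CPM in the control against 9.33 ± 4.07 CPM (SD, n = 3)), tested through the control alone. The rising genes Itga6, Cdh4 and Cspg5 were called in 7, 8 and 5 of 13 settings. The medians of this list were 0.40, 0.54 and 0.04, and its median turned to -0.28 after subtracting that of genes of like length.

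Of 45 genes of DNA replication and cell division 5 rose (11.1%) and 6 fell (13.3%, 1 of them tested through the control alone), close to the shares of all tested genes (9.08% and 9.45%), with medians of -0.24, -0.06 and -0.12. Mki67, a proliferation marker, was at 55.3 CPM in the control and 197, 244 and 168 CPM in TKO, PKO and TPDKO (log2 fold change 1.88 ± 0.28 (SE), FDR = 0.0013), and the kinetochore genes Cenpf and Cenpe were at 46.5 CPM in the control against 116 ± 13.6 CPM (SD, n = 3) and 27.1 CPM in the control against 82.5 ± 14.9 CPM (SD, n = 3). The longest transcripts of these 3 genes have between 7910 and 11130 bases. Among 20 p53 targets none rose and 4 fell, 3 of them tested through the control alone, and medians differed between libraries, at -0.08, -1.35 and -1.09. Of the 20, 12 had 20 or more reads in every library. The others passed the filter through 1 side alone, so these medians describe the tested genes and not the whole list. TKO, in which Trp53 was not floxed, was near the median of all genes. Ccng1, a cyclin induced by p53, was low in all 3 (70.5 CPM in the control and 21, 8.36 and 15.5 CPM in TKO, PKO and TPDKO), as was Phlda3 (30.6 CPM in the control and 4.74, 2.69 and 2.69 CPM in TKO, PKO and TPDKO), which was tested through the control alone. Interferon and RNA sensing genes were tested because the cells took up mRNA made in vitro. Of 16 tested, 3 rose (18.8%) and 1 fell (6.25%), beside 9.08% and 9.45% of all tested genes, with medians of 0.26, 0.44 and 0.33. The membrane protein Ifitm2 was at 59.8 CPM in the control and 139.9, 135 and 138 CPM in TKO, PKO and TPDKO, and Ifitm3 was at 11.2 CPM in the control against 27.1 ± 5.6 CPM (SD, n = 3). The RNA-sensing kinase Eif2ak2 (PKR) was at 6.88 CPM in the control and 16.3, 15.2 and 17.2 CPM in TKO, PKO and TPDKO (log2 fold change 1.23 ± 0.36 (SE), FDR = 0.03), called in 8 of 12 settings. Mavs, the adaptor of cytosolic RNA sensors, had 38 reads in the control and 9, 11 and 11 in the others, was tested through the control alone and was called in 8 of 11 settings. After subtracting the median of genes of like length, the mean of a list's 3 medians went from 0.34 to 0.20 for interferon and RNA sensing, from 0.35 to 0.22 for the respiratory chain, from 0.34 to 0.18 for U6 processing, from -0.63 to -0.39 for the ATF4 response, from 0.63 to 0.31 for oligodendrocyte lineage markers, from -0.14 to -0.09 for DNA replication and cell division and from 0.07 to -0.02 for mitochondrial ribosomal proteins.

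**Figure D4:**
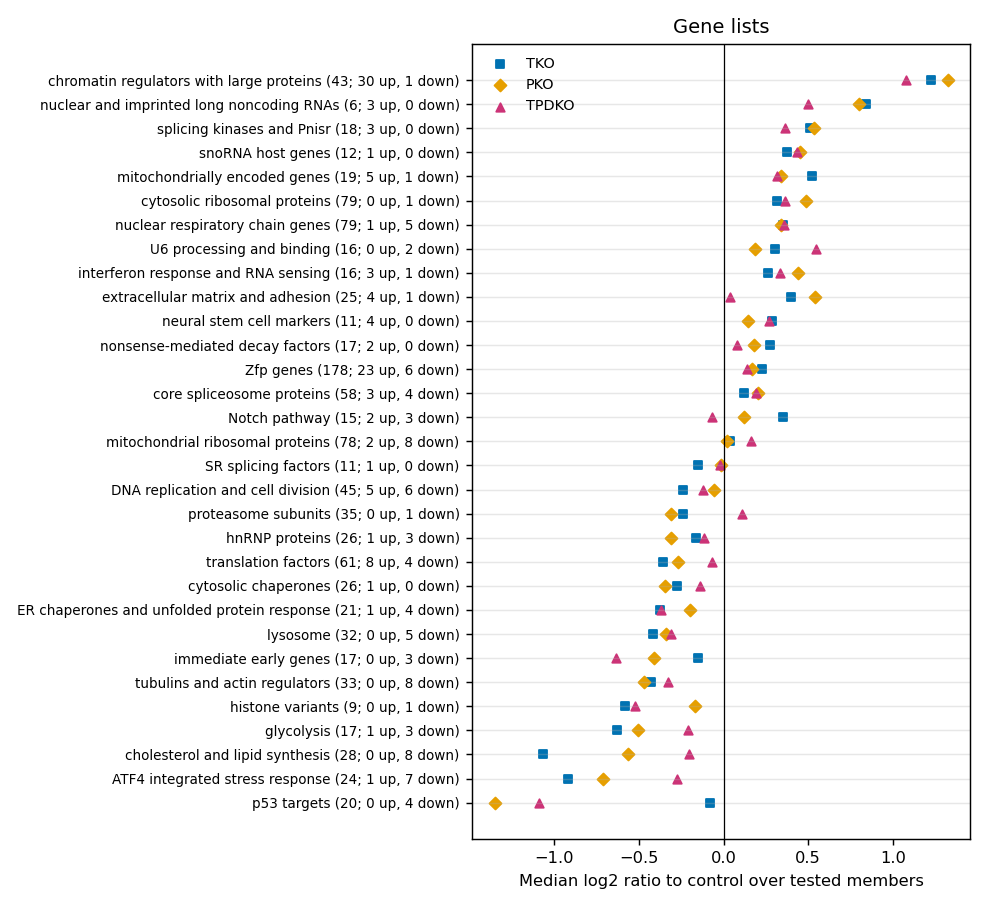
Median log2 ratio to control of each of the 31 fixed gene lists with at least 5 tested members, 1 point per Cre mRNA library, with the number tested and called beside each name. The chromatin regulators lay highest, between 1.08 and 1.33, and the p53 targets spread most widely, from -0.08 in TKO to -1.35 in PKO. Tested members include genes that passed the filter on reads through 1 side alone.

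RNA classes shifted as well. The ribosomal RNA gene CT010467.1 took 18.7% of gene reads in the control and 9.76%, 8.91% and 5.46% in TKO, PKO and TPDKO. The 95% Wilson intervals of these shares did not overlap, though they cover counting error only, as PCR reads are not independent molecules. Mitochondrial ribosomal RNA rose from 0.937% to 3.79%, 3.46% and 2.89%. Most of it was mt-Rnr2, the large ribosomal RNA, at 7878 CPM in the control and 34156, 31073 and 25343 CPM in TKO, PKO and TPDKO (log2 fold change 1.94 ± 0.18 (SE), FDR = 9.5e-05). The small one, mt-Rnr1, was at 1559 CPM in the control against 3583 ± 976 CPM (SD, n = 3). Of 19 mitochondrially encoded genes 5 rose and 1 was called lower, tested through the control alone, beside 9.08% rising and 9.45% falling of all tested genes, with mt-Nd5, of complex I, at 374 CPM in the control against 819 ± 42.3 CPM (SD, n = 3). Of the other genes over 1% of gene reads, Ppia and Tmsb10 did not pass the test (9751 CPM in the control and 9541, 10476 and 10932 CPM in TKO, PKO and TPDKO for Ppia).

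Outside protein-coding genes 70 of 497 (14.1%) rose and 36 (7.24%) fell, beside 8.78% and 9.58% of protein-coding genes. The difference between these shares was not tested, and 44 of the 70 and 20 of the 36 were tested through the side where they were high alone. In the class TEC, single-exon loci that await experimental evidence, 21 of 32 were called higher and none lower, but 20 of the 21 had fewer than 20 control reads and were tested through the Cre mRNA libraries alone. Its share of gene reads was 0.0532% in the control and 0.182%, 0.163% and 0.156% in the others. Gm47087 was its most read called gene (20.7 CPM in the control against 55.7 ± 8.48 CPM (SD, n = 3)). Of 62 lincRNA genes 9 rose, 4 of them with fewer than 20 control reads, and none fell. Ftx, a noncoding neighbour of Xist, had 8 reads in the control and 43, 52 and 42 in the others. Small nuclear RNA genes held 79 gene reads in the control and 301, 296 and 336 in TKO, PKO and TPDKO, though none was tested singly. The RNA component of RNase P, Rpph1, was at 12.3 CPM in the control and 47.4, 38.5 and 37.7 CPM in TKO, PKO and TPDKO (log2 fold change 1.73 ± 0.32 (SE), FDR = 0.0035), and the Y RNA Rny3, with 15 control reads, at 3.56 CPM in the control against 12 ± 2.28 CPM (SD, n = 3). Of 6 sense intronic genes 2 were called higher, AC132307.1 (4.04 CPM in the control against 26.5 ± 0.605 CPM (SD, n = 3)) and Gm43847 (2.37 CPM in the control against 15.2 ± 2.35 CPM (SD, n = 3)). They had 17 and 10 control reads and were tested through the Cre mRNA libraries alone. Both lie inside introns of other genes on the same strand by their class. Gt(ROSA)26Sor, the noncoding RNA of the Rosa26 locus, was the antisense gene called of 41 tested. It fell from 205 CPM to 46.8, 52.2 and 55.8 CPM (log2 fold change -1.99 ± 0.21 (SE), FDR = 0.00021). Among snoRNA host genes Snhg3 rose (123.5 CPM in the control against 263 ± 40.5 CPM (SD, n = 3)), and of 12 tested none fell. Snhg3 was called in 10 of 13 settings. Of 203 processed pseudogenes 12 rose and 25 fell, 7 and 15 of them tested through 1 side alone. They resemble their parent genes, so these reads are uncertain.

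Among annotated transcripts without ribosomal RNA, retained-intron isoforms held 1.59% of reads in the control and 2.52%, 2.34% and 2.30% in TKO, PKO and TPDKO. Isoforms marked for nonsense-mediated decay held 0.480% in the control and 0.495% to 0.50% in the others. Entries that named no gene, only a position, held 17.2% of all reads in the control and 30.2%, 28.9% and 27.3% in the others. Those inside the span of a tested protein-coding gene accounted for 7.13% in the control and 16.4%, 15.3% and 14.9%, whereas those elsewhere made up 10.1%, 13.8%, 13.6% and 12.4%. At the Malat1 locus such entries held 5528 reads in the control and 41147, 51488 and 39811 in the others, against 55, 315, 323 and 261 reads assigned to the gene. Inside Crebbp they held 165, 493, 590 and 505 reads in the order control, TKO, PKO and TPDKO, and inside Hspa5 9, 7, 6 and 4. Depth, ribosomal RNA share and reads without a gene thus moved with the Cre mRNA groups together with the gene changes above, and their part in those changes was not tested.

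**Figure D5:**
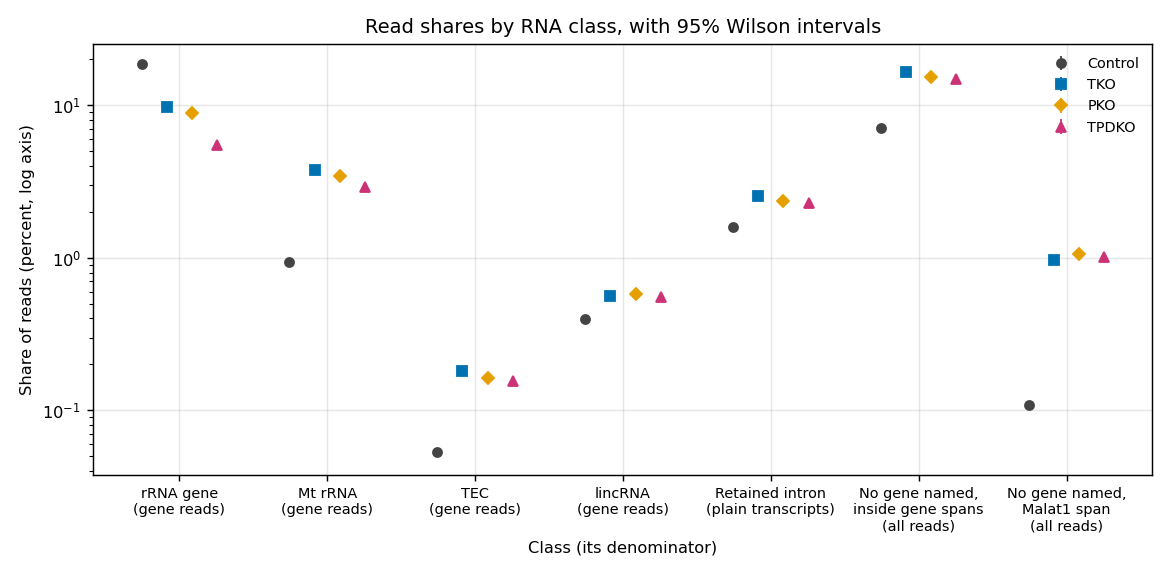
Share of reads (percent, log axis) of RNA classes and of reads that name no gene in each library, with the denominator in brackets and 95% Wilson intervals, which are mostly smaller than the points. The ribosomal RNA gene is higher in the control than in the 3 Cre mRNA libraries, and each other class shown is lower in it, most of all the reads at the Malat1 locus that name no gene (0.108% against 0.967% to 1.07%).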

How the data were processed

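Neural stem cells were profiled by Nanopore sequencing of PCR-amplified cDNA, 1 library each for empty LNP and for 3 genotypes given Cre-LNP. The authors deposited 1 table of whole-number read counts per isoform and library, not normalized. The submitters' processing notes name mm10. For dissected tissue the study used minimap2 and FLAIR, but the tools, filters and strand setting for these cells are not given in the sources used here. Isoform counts were summed per Ensembl gene. Entries without a gene (17.2% to 30.2% of reads) stayed out of library sizes and tests. Symbols, lengths and biotypes came from GENCODE M21 (GRCm38), which named 14936 of 14949 genes.

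The main test was the quasi-likelihood test of edgeR 4.0.16 (under R 4.3.3) after TMM scaling. It had 2 residual degrees of freedom, and calls needed a Benjamini-Hochberg FDR under 0.05 and a 2-fold change. An alternative used DESeq2 1.42.0. To give an SE, each fold change was divided by the root of its F statistic. Log2 ratios of CPM used a pseudocount of 0.5. Intervals of ratios are exact conditional binomial and cover counting error only. Python 3.11.15, scipy 1.17.1, pandas 2.3.3 and matplotlib 3.10.9 were used.

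Genes named were Tut1, Trp53 and Xist, the 10 largest called changes each way (at least 50 CPM in the control or in each other library, and 20 reads in every library), of each list up to 4 called members with most reads plus up to 2 against its majority, genes over 1% of gene reads, and up to 3 called genes per noncoding class. The histone set, Kdm5d, Hist3h2a, Hist3h2ba, Srebf1, Insig1, Fasn, Mvk, Herpud1 and Crebbp, were chosen after their values were seen. The comparison, the members and the gene lists were chosen with earlier results of these data known. Some genes that the rule names are not reported here.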

Additional observations from a re-analysis of the deposited data

Results flagged for a closer look

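Reads in data outside the gene counts were more abundant in the Cre mRNA libraries than in the control. At the Malat1 locus, entries that name a position but no gene held 0.108% of all reads in the control library and 0.967%, 1.07% and 1.01% in TKO, PKO and TPDKO. Inside the spans of tested protein-coding genes, such entries held 7.13% of reads in the control and 16.4%, 15.3% and 14.9% in the others. Positions of these entries are rounded to 1000 bases, so an entry may belong to a neighbouring or overlapping gene. Their 95% Wilson intervals did not overlap between control and Cre mRNA libraries, but with 1 control library this has no replicate check.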

How the results depend on the processing

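With 1 control library, no setting tests how far another control would lie. Rising and falling counts (794 and 826) stayed within 1.5 times under the other scalings, no filter and edgeR's default filter. They were 433 and 447 at a mean of 50 reads, 497 and 514 at 20 reads in every library, 508 rising with a Trp53 term and 430 falling with DESeq2. Leaving out 1 Cre mRNA library gave 612 to 1040 rising and 750 to 1250 falling, highest without TPDKO. By ratio, 1190 and 1085 genes were shared at 1.5-fold, 115 and 111 at 4-fold, 416 and 218 with 20 reads in every library, and leaving out 1 library gave 676 to 821 rising and 665 to 969 falling, highest without TPDKO. Of 158 named called genes, 99 stayed called under every alternative that tested them and none changed direction. The cause was not tested where values moved.

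The long minus short difference (0.14) was -0.11 with the most-read transcript, 0.030 on plain transcripts, 0.76 for 6000 against 1500 bases, and 1.35 for 8000 bases against 1500 to 3000, a choice made after seeing the data. The exon difference (0.23) was -0.26 with the most-read transcript and -0.19 within 2000 to 4000 bases. Longer and shorter isoform counts (35 and 141) were 634 and 1271 for any difference, 4 and 40 at 25%, and 6 and 19 at 100 reads. With all reads as denominator, fold shares were 0.93 for protein-coding genes (1.08 of gene reads), 3.10 for mitochondrial rRNA, 1.22 for lincRNA and 1.39 for retained introns. Minus its length bins, the matrix and adhesion list was at -0.28 (0.32 before). TMM factors from edgeR's default filter, added after seeing the data, lowered the median of all genes by 0.09 to 0.11. No paired analysis was possible because the labels give no replicate numbers and the control is 1 library.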

Other observations

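Long internal runs of A were compared within bins of length. Among protein-coding genes of 1500 to 3000 bases, the 433 with a run of 8 A bases, leaving out the last 50 bases, had median log2 ratios of -0.14, -0.14 and -0.11 in TKO, PKO and TPDKO, against -0.39, -0.43 and -0.29 for 2381 genes without one. Over 8000 bases the values were 1.15, 1.13 and 0.90 for 274 genes with a run and 0.98, 1.06 and 0.77 for 125 without. The genes include those that passed the filter on reads through the control alone or the Cre mRNA libraries alone. Genes are not replicates, and no test was made.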
